A study of Mus musculus with 19 samples.

Results

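The livers of mice given chronic thioacetamide (TAA) and then a control adeno-associated virus encoding green fluorescent protein (AAV-GFP) were compared with the livers of vehicle-treated mice, across every gene that the sequencing could measure. All 7 AAV-GFP and all 5 vehicle libraries of the series entered, which makes 12 of its 19 libraries, and 9522 of the 31053 listed genes passed the filter on low counts. The remaining 7 libraries, from TAA-treated mice that received the miR-34b and miR-34c vectors (AAV-miR-34b/c), served for side-by-side values alone. All mice were male C57BL6J animals of 6 to 8 weeks without an engineered mutation. The AAV-GFP group received escalating doses of TAA for 12 weeks. At week 10 it was injected with a vector that drives GFP from the hepatocyte-specific thyroxine-binding globulin promoter (AAV8 TBG), and livers were collected 4 weeks after the vector, at week 14 and hence 2 weeks after the last TAA. The vehicle group received phosphate-buffered saline. Whether these mice were also given a vector is not clear from the sources used here, so that effects of TAA and of the vector cannot be told apart, and the comparison describes livers after TAA had stopped.

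TAA is a hepatotoxin that is oxidised by cytochromes P450 and flavin monooxygenases to reactive S-oxides, mainly in the hepatocytes around the central vein. Repeated dosing is a standard way to produce scarring in rodents: dying hepatocytes are replaced, macrophages accumulate, and stellate cells leave their quiescent state to deposit collagen. Hepatocytes also carry much of what the liver does for the body, including detoxification, bile acid and lipid synthesis, plasma protein secretion and a strong daily rhythm, so that chronic injury can be read in many programmes besides the matrix.

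Libraries held 2214073 to 4145454 counts in the vehicle group and 2463842 to 4383805 in the AAV-GFP group, with 12530 to 12945 and 12924 to 13460 genes detected. Albumin, the defining hepatocyte product, took 3.01% to 5.10% of counts in vehicle and 3.27% to 4.61% in AAV-GFP livers. The AAV-GFP livers were not uniform. Replicates 1 to 4 had 7.85% to 9.41% of their counts on mitochondrially encoded genes, whereas replicates 5 to 7 had 4.83% to 5.50% and the vehicle livers 3.73% to 5.65%. The first principal component, which held 39.2% of the variance, put AAV-GFP replicates 1 to 4 at 39.7 to 43.1, replicate 5 at 13.1, replicates 6 and 7 at -10.7 and -11.4, and the vehicle livers at -41.4 to -21.2. Some libraries were also closer to each other than replicates usually are: vehicle 1 with 4, vehicle 3 with 5, and AAV-GFP 1 with 2 had a coefficient of variation beyond counting error of less than 0.2, although they still differed beyond sampling noise. Where the call of a gene described in detail changes, it is therefore followed by the result with close pairs summed, with the mitochondrial share as a covariate, or with AAV-GFP replicates 5 to 7 alone.

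**Figure D1:**
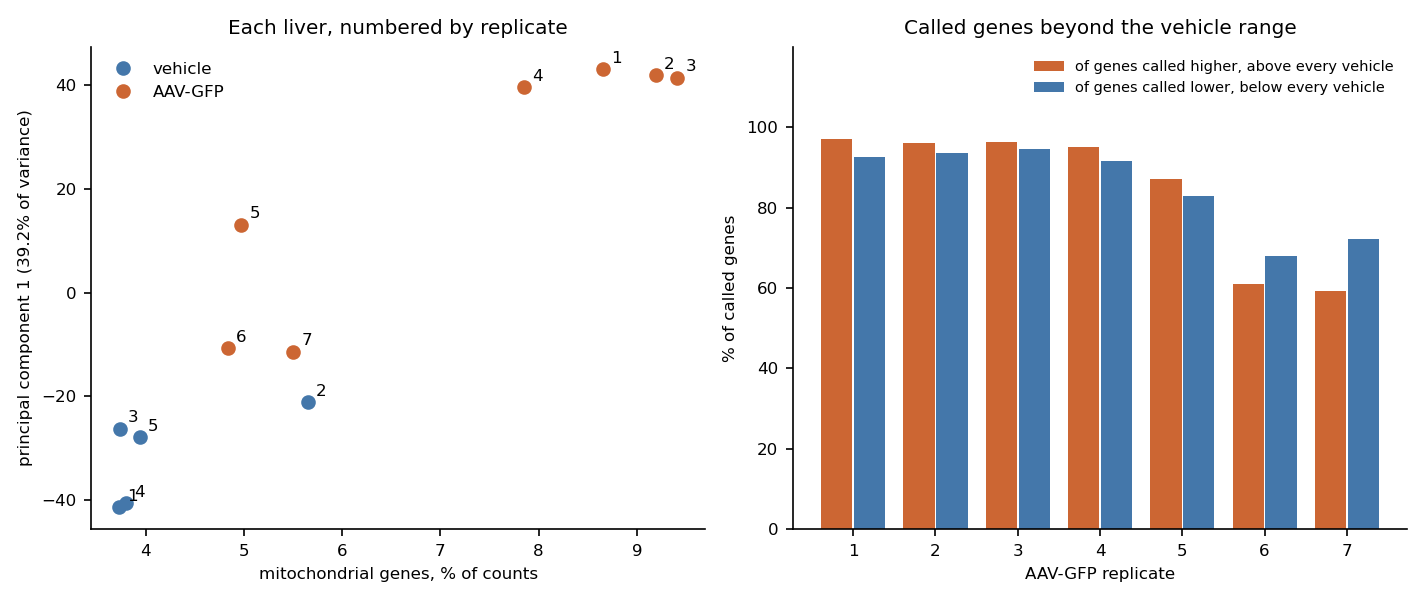
The left panel plots each liver, numbered by replicate, by the percentage of its counts on mitochondrially encoded genes (x axis) and its first principal component score (y axis). The right panel gives, for each AAV-GFP liver, the percentage of the 718 higher genes lying above every vehicle liver and of the 494 lower genes lying below every vehicle liver; replicates 1 to 4 reach 95% to 97.2% for higher genes, against 61.1% and 59.3% in replicates 6 and 7.

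In the AAV-GFP livers 1212 genes changed, 718 upwards and 494 downwards, that is 12.7% of the genes tested, 7.54% higher and 5.19% lower (edgeR, adjusted p under 0.05). Of these, 400 rose and 179 fell at least 2-fold, and 51 rose and 36 fell at least 4-fold, while the median log2 fold change of all tested genes was -0.009. Values of the groups did not overlap for 249 genes on the higher side and 213 on the lower side, which is 4.85% of those tested. By adjusted p the clearest increases included the scar-associated macrophage gene Gpnmb, the glutathione transferase Gsta2 and the tetraspanin Cd63, and the clearest decreases were of Moxd1, Gpcpd1 and the male-biased genes Nxpe2 and Susd4. The number of calls depended on single libraries: it fell to 728 without vehicle 1, 689 without vehicle 4 and 806 without AAV-GFP 3, and grew to 1859 without AAV-GFP 6. On the higher side it was 462 without vehicle 1 and 432 without vehicle 4. On the lower side it was 266 and 257 without these livers, 319 without AAV-GFP 2, 314 without AAV-GFP 3, 841 without AAV-GFP 6 and 768 without AAV-GFP 7. With close pairs summed, 227 genes were called, with the mitochondrial share as a covariate 146, and with AAV-GFP replicates 5 to 7 alone 180. All 1212 genes kept their direction with close pairs summed, 1192 of 1212 with the covariate, and 1165 of the 1166 with a value in replicates 5 to 7.

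**Figure D2:**
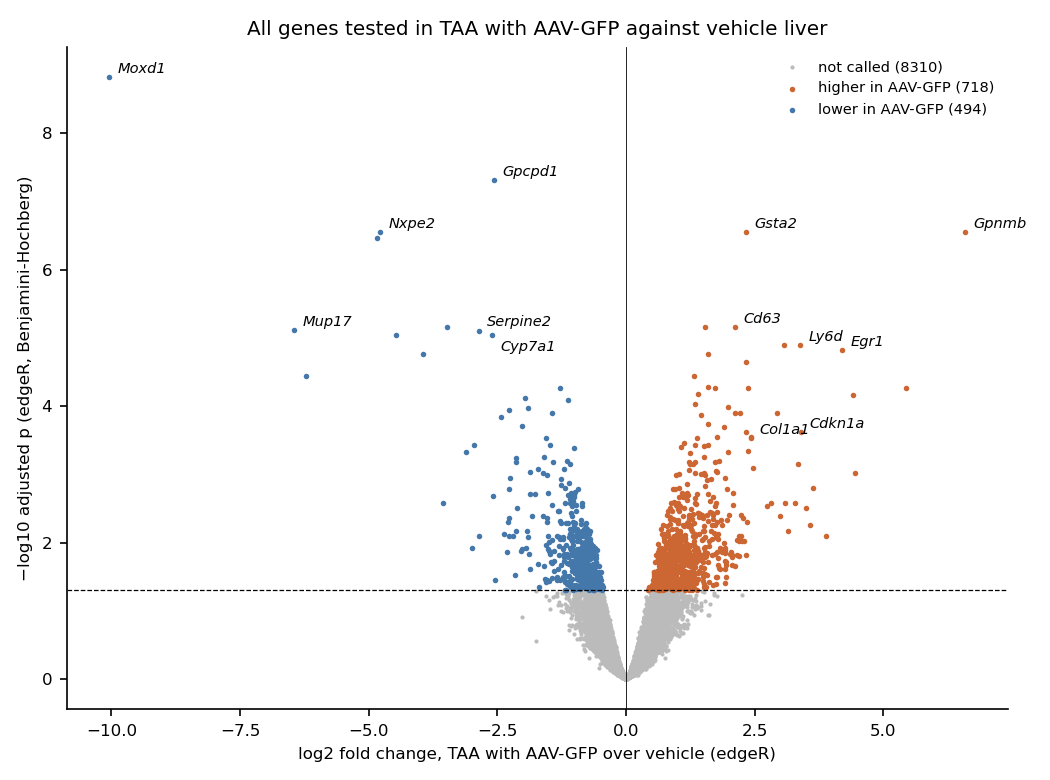
Each point is 1 of the 9522 tested genes, with its log2 fold change of AAV-GFP over vehicle (x axis) and −log10 adjusted p from edgeR (y axis); the dashed line marks an adjusted p of 0.05. The 718 higher and 494 lower genes are coloured, Gpnmb lies farthest to the right at 6.59 and Moxd1 farthest to the left at -10.04.

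Of 30 tested targets of NRF2, the transcription factor that responds to electrophiles, 14 rose, none fell and 16 were not called, against 7.54% of all genes called higher and 5.19% called lower, and the median log2 fold change of the list was 0.65. The 14 were Gsta2, Gstm3, Gstm1, Gclc, Gstm2, Cbr3, Ephx1, Aox1, Abcc3, Cyp2a5, Ftl1, Gstm4, Pgd and Gsta4. Gsta2 (chr9:78331018-78355788, GRCm38), a glutathione transferase of the alpha class, was at 13.7, 16.2, 11.8, 14.5 and 11 CPM (its share of a library's counts, scaled to a common library total) in the vehicle livers and between 47.5 and 88.2 CPM, with a median of 66.7, in the AAV-GFP livers. The groups were far apart in every replicate, with a log2 fold change of 2.34 ± 0.20 (SE, adjusted p = 2.81e-07). Gclc (chr9:77754535-77794485), the catalytic subunit of the enzyme that commits cysteine to glutathione, was at 140, 165, 166, 146 and 145 CPM in vehicle livers and at 306 to 526 CPM (median 461) in AAV-GFP livers. Here too no values overlapped (log2 fold change 1.53 ± 0.16, adjusted p = 6.92e-06).

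Gstm3, a mu class transferase, was at 12.6, 18.3, 18.8, 16.3 and 19 CPM in vehicle livers and at 43.1 to 135 CPM (median 103) in AAV-GFP livers, and rose by a log2 fold change of 2.34 ± 0.28 (adjusted p = 2.27e-05). Ephx1, the microsomal epoxide hydrolase, went from 160 ± 22 CPM (SD, n = 5) to 400 ± 59 CPM (SD, n = 7), a log2 fold change of 1.32 ± 0.16 with an adjusted p from edgeR of 3.57e-05. These transferases and hydrolases stood above every vehicle liver in all 7 AAV-GFP livers. Not every classical target was called: Nqo1, a quinone reductase, had 3.71 ± 1.79 CPM (SD, n = 5) and 5.01 ± 2.19 CPM (SD, n = 7) with an adjusted p from edgeR of 0.501, and Hmox1, the inducible haem oxygenase, had a log2 fold change of 0.28 ± 0.30 (adjusted p = 0.55). The count of 14 was 7 with close pairs summed, 7 with the mitochondrial covariate and 9 in replicates 5 to 7 alone, and Gsta2, Gclc, Gstm3 and Ephx1 kept their calls in each of these.

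Of 38 tested cytochromes P450 of families 1 to 4, 6 rose (Cyp2a5, Cyp2a12, Cyp2c38, Cyp3a11, Cyp4a12a and Cyp4a12b) and 2 fell (Cyp2c37 and Cyp2c70), with a list median of 0.12. This is 21.1% of the list against 12.7% of all genes, and 2 falls in 38 are close to the 5.19% of all genes called lower. The fall reached 4 genes without vehicle 2. With close pairs summed 1 rose and 1 fell, with the mitochondrial covariate 1 rose and none fell, and in replicates 5 to 7 2 rose and 1 fell. Cyp2e1, a P450 known for oxidising TAA, was at 1828, 1588, 1691, 1925 and 2150 CPM in vehicle livers and at 772 to 1982 CPM (median 1433) in AAV-GFP livers. These ranges overlapped and the gene was not called (log2 fold change -0.39 ± 0.19, adjusted p = 0.188). Cyp3a11, the main inducible P450 of its subfamily in mouse, was at 1400, 741, 734, 1520 and 998 CPM in vehicle livers and at 1137 to 3809 CPM (median 1968) in AAV-GFP livers. It rose by 1.06 ± 0.27 on the log2 scale (adjusted p = 0.015), with an adjusted p of 0.0872 once close pairs were summed. Por, the reductase that passes electrons to all microsomal P450 enzymes, was at 622, 818, 808, 618 and 698 CPM in vehicle livers and at 206 to 356 CPM (median 285) in AAV-GFP livers. It lay below the vehicle range in all 7 livers (log2 fold change -1.28 ± 0.16, adjusted p = 5.36e-05).

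Of 29 tested conjugation enzymes and flavin monooxygenases, 1 rose and 3 fell, which at 13.8% is close to the 12.7% of all genes called, and the falls numbered 5 without vehicle 2, 7 without AAV-GFP 6 and 5 without AAV-GFP 7. The gene that rose, Fmo1, encodes the flavin monooxygenase of liver and kidney and went from 26.5 ± 4.61 CPM (SD, n = 5) to 47.7 ± 7.16 CPM (SD, n = 7) with a log2 fold change of 0.85 ± 0.18. Sult1d1, a sulfotransferase, fell by 1.26 ± 0.22 on the log2 scale (adjusted p = 0.00118), alongside Sult1a1 and Nat2. Neither Fmo1 nor Sult1d1 was called with the mitochondrial covariate, and Fmo1 was also not called with close pairs summed or in replicates 5 to 7.

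**Figure D3:**
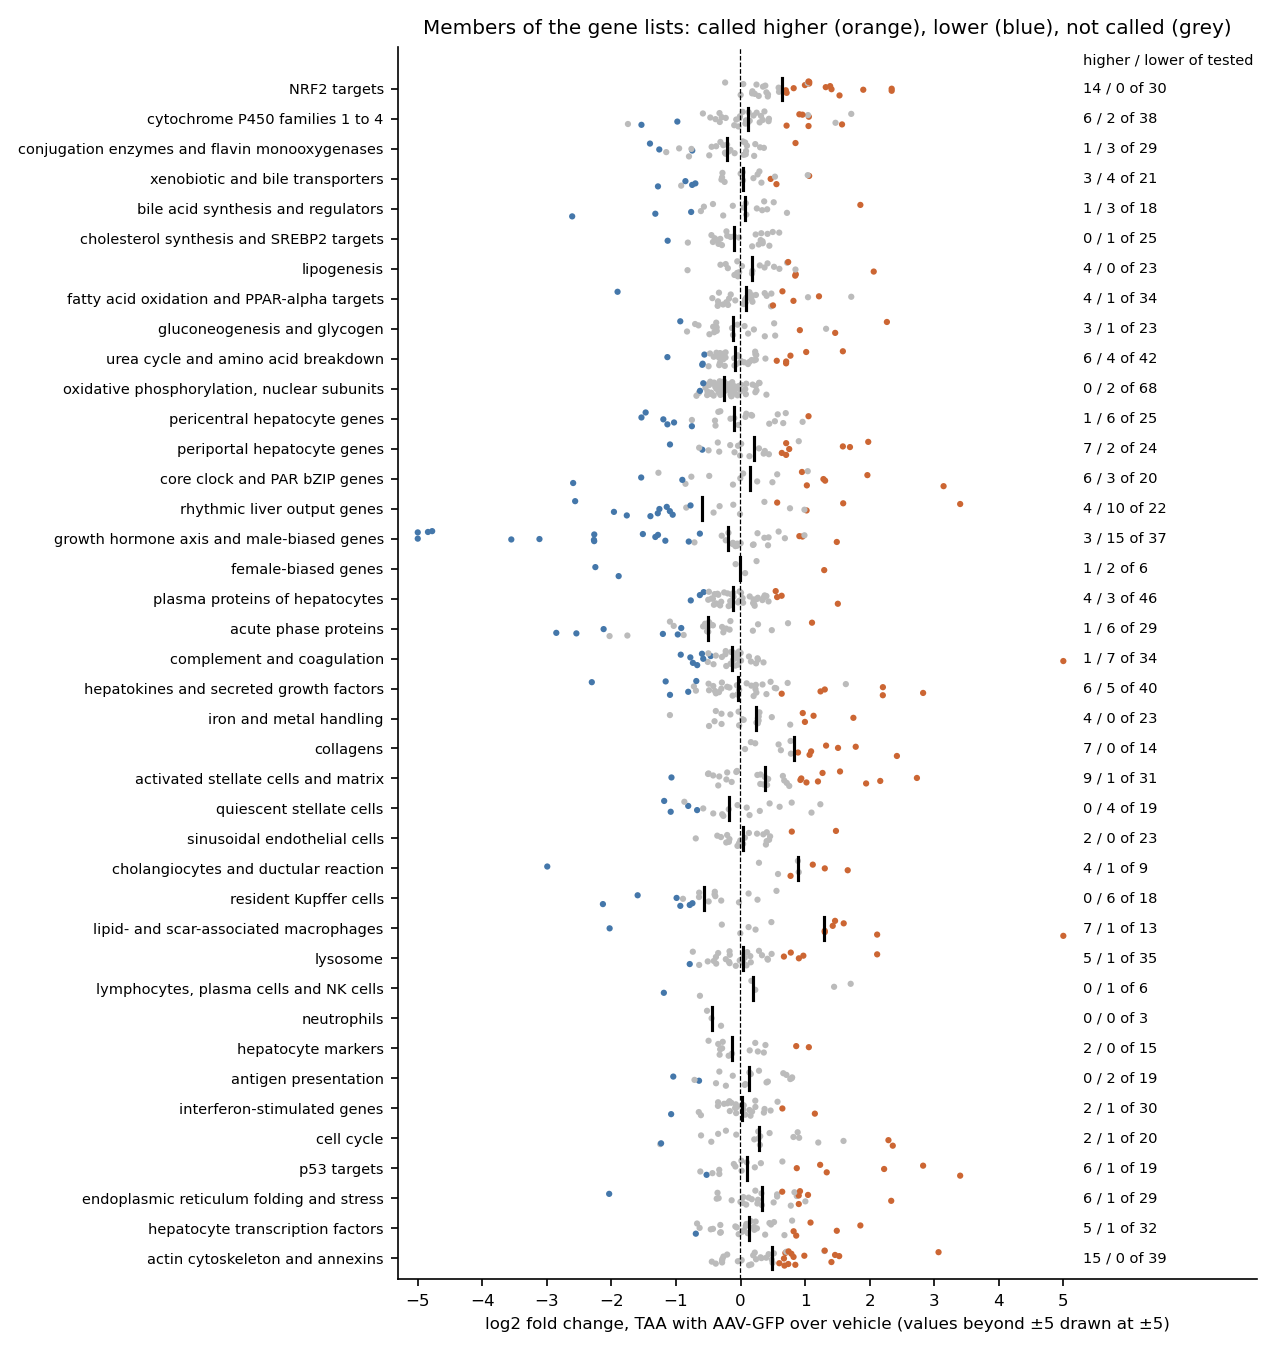
Each row is a gene list and each point a tested member at its log2 fold change of AAV-GFP over vehicle (x axis), orange where called higher, blue where called lower and grey where not called; the black bar is the list median and the numbers at the right are members higher, lower and tested. NRF2 targets have 14 of 30 members higher and none lower, and rhythmic liver output genes have 10 of 22 lower.

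Transcripts of the bile acid enzyme Cyp7a1 were low. Cyp7a1, the rate-limiting enzyme of the classical pathway, was at 421, 288, 414, 428 and 381 CPM in vehicle livers and at 37.7 to 148 CPM (median 45.3) in AAV-GFP livers. All AAV-GFP livers were below all vehicle livers, replicate 7 being the highest, with a log2 fold change of -2.61 ± 0.28 (adjusted p = 9.01e-06). Nr0b2, which encodes the repressor SHP that acts on Cyp7a1, was at 1.81, 12.1, 11.3, 2.55 and 14.4 CPM in vehicle livers and at 16.3 to 40.6 CPM (median 32.7) in AAV-GFP livers, a log2 fold change of 1.86 ± 0.38 (adjusted p = 0.00465, and 0.0632 with the mitochondrial covariate). Among 18 tested genes of bile acid synthesis and its regulation, Cyp7b1 and Akr1d1 also fell, which made 1 higher and 3 lower (22.2% against 12.7% of all genes). The lower count was 1 without vehicle 1 or vehicle 4, 5 without AAV-GFP 6 and 6 without AAV-GFP 7, and the higher count was 2 without AAV-GFP 7. Cyp7a1 was called in every alternative, and the lower count was 1 with close pairs summed, with the mitochondrial covariate and in replicates 5 to 7.

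Of 23 tested genes of lipogenesis 4 rose (Acaca, Fasn, Scd2 and Slc25a1) and none fell, which is 17.4% against 12.7% of all genes. The higher count was 1 with close pairs summed and 0 with the mitochondrial covariate or in replicates 5 to 7. The lower count was 1 with the mitochondrial covariate and 1 in replicates 5 to 7. Of 25 cholesterol synthesis genes 1 fell, Sqle, and none rose, which is 4%. Fasn, the fatty acid synthase, went from 108 ± 14.7 CPM (SD, n = 5) to 196 ± 35.4 CPM (SD, n = 7) with a log2 fold change of 0.86 ± 0.17. Sqle, squalene epoxidase, fell by 1.13 ± 0.21 on the log2 scale, without overlap between the groups, from 94.2 ± 29 CPM (SD, n = 5) to 43.1 ± 9.96 CPM (SD, n = 7). Both calls were lost with the mitochondrial covariate and in replicates 5 to 7 alone. Leaving out vehicle 2 or AAV-GFP 6 gave 2 lower cholesterol genes, leaving out AAV-GFP 7 gave 2 higher ones, and leaving out AAV-GFP 6 gave 1 lower lipogenic gene. Insig2, which retains the sterol-sensing machinery in the endoplasmic reticulum, was at 111, 78.6, 116, 103 and 119 CPM in vehicle livers and at 170 to 284 CPM (median 206) in AAV-GFP livers (log2 fold change 1.02 ± 0.17, adjusted p = 0.000989).

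The fatty acid transporter Cd36 was at 17, 15.2, 15.5, 15 and 22.4 CPM in vehicle livers and at 41.4 to 66.1 CPM (median 48.8) in AAV-GFP livers, a log2 fold change of 1.60 ± 0.18 (adjusted p = 1.73e-05). Of 34 tested genes of fatty acid oxidation and PPAR-alpha targets 4 rose (Acaa1b, Acsl1, Vnn1 and Cpt2) and 1 fell, Fitm1. At 14.7% this is close to the 12.7% of all genes called. The higher count was 1 without vehicle 1, vehicle 4 or AAV-GFP 1, 1 with close pairs summed or in replicates 5 to 7, and 0 with the mitochondrial covariate. Fitm1, which acts in lipid droplet formation, fell by 1.91 ± 0.26 on the log2 scale (adjusted p = 0.000106). Cd36, Fitm1 and Insig2 kept their calls in every alternative that gave a value.

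Of 25 tested genes known for pericentral expression in the liver lobule 6 fell and 1 rose, and of 24 known for periportal expression 7 rose and 2 fell, where 7.54% of all genes were called higher and 5.19% lower. The lists as a whole moved little. The median log2 fold change was -0.098 for the pericentral list, with 11 of 25 genes above 0, and 0.21 for the periportal list, with 14 of 24 above 0. The pericentral genes that fell were Cyp2c37, Lhpp, Rnf43, Oat, Slc1a2 and Glul, and the periportal genes that rose were Mfsd2a, Aldh1b1, Etnppl, Cdh1, Uroc1, Gls2 and Hsd17b6. Cyp2a5, the pericentral gene that rose, was not called without vehicle 1, 3, 4 or 5 or without AAV-GFP 1, 2 or 7, nor with close pairs summed (adjusted p = 0.262) or with the mitochondrial covariate (0.214). The lower pericentral genes numbered 4 with close pairs summed, 3 with the mitochondrial covariate and 5 in replicates 5 to 7, and the higher periportal genes 3, 2 and 3. Igfbp2 was among the 2 periportal genes that fell, and only 1 was called lower without vehicle 1, 4 or 5 or without AAV-GFP 1, 2, 3 or 4.

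Oat, ornithine aminotransferase, was at 436, 361, 285, 373 and 355 CPM in vehicle livers and at 135 to 187 CPM (median 173) in AAV-GFP livers. It was lower in all 7 livers (log2 fold change -1.13 ± 0.15, adjusted p = 8.02e-05). Glul, glutamine synthetase of the hepatocytes next to the central vein, was at 617, 607, 646, 676 and 776 CPM in vehicle livers and at 187 to 524 CPM (median 414) in AAV-GFP livers, a log2 fold change of -0.75 ± 0.20 (adjusted p = 0.0167), and its adjusted p was 0.125 with close pairs summed, 0.203 with the mitochondrial covariate and 0.113 in replicates 5 to 7. Slc1a2, a glutamate transporter of the same zone, fell by 1.03 ± 0.19 on the log2 scale (adjusted p = 0.00247). Etnppl, the phospho-lyase of ethanolamine phosphate, was at 54.2, 99.3, 48, 67.5 and 49.9 CPM in vehicle livers and at 149 to 237 CPM (median 194) in AAV-GFP livers. The gene rose in every liver (log2 fold change 1.58 ± 0.20, adjusted p = 5.24e-05). Mfsd2a, a lysophospholipid transporter, went from 13.6 ± 5.05 CPM (SD, n = 5) to 53.1 ± 17.1 CPM (SD, n = 7) with an adjusted p from edgeR of 0.000103.

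Nuclear genes of oxidative phosphorylation gave 2 lower and no higher call among 68, with a median of -0.26. This is 2.94% of the list, below the 12.7% of all genes called. The count depended on the libraries. There were 33 lower genes when AAV-GFP replicates 1 to 5 were compared with vehicle, where 1407 of all 9273 tested genes were lower. There were none in replicates 5 to 7. Leaving out AAV-GFP 6 gave 16 and leaving out AAV-GFP 7 gave 8, whereas no gene was called without vehicle 1, 4 or 5 or without AAV-GFP 1, 2 or 3, and 1 without vehicle 2 or 3 or AAV-GFP 4. Leaving out vehicle 3 also gave 1 higher gene. AAV-GFP replicates 1 to 4 are also those with the high mitochondrial share, and with this share as a covariate no gene of the list was called in either direction and the list median was 0.16.

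Of 20 tested genes of the core clock and the PAR bZIP family, 6 rose (Arntl, Nfil3, Nr1d1, Rora, Clock and Csnk1d) and 3 fell (Per3, Dbp and Nr1d2), where 7.54% of all genes were called higher and 5.19% lower. Of 22 rhythmic output genes of liver, 10 fell (Gpcpd1, Upp2, Wee1, Usp2, Por, Rgs16, Tspan4, Coq10b, Nampt and Fkbp5) and 4 rose (Cdkn1a, Pnrc1, Insig2 and Tars), with a median of -0.60, which is 63.6% of that list against 12.7% of all genes. With close pairs summed 2 clock genes rose and 1 fell and 3 output genes rose and 5 fell, with the mitochondrial covariate 1 and 1 and 3 and 5, and in replicates 5 to 7 1 and 0 and 3 and 4. The hour of collection is not given in the sources used here, so that a different time of day and a different treatment cannot be told apart for these genes.

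Arntl, which encodes the clock activator BMAL1, was at 0.361, 0, 0, 1.27 and 0.423 CPM in vehicle livers and at 0.332 to 7.34 CPM (median 5.74) in AAV-GFP livers. The lowest AAV-GFP liver, replicate 7, was within the vehicle range and the other 6 were above it (log2 fold change 3.15 ± 0.69, adjusted p = 0.00684). Its adjusted p was 0.0541 with close pairs summed and 0.238 with the mitochondrial covariate. Clock, the partner of BMAL1, was at 16.6, 15.9, 17.4, 22.4 and 14.8 CPM in vehicle livers and at 23.9 to 45.8 CPM (median 36.9) in AAV-GFP livers, without overlap (log2 fold change 1.03 ± 0.20, adjusted p = 0.00297), although the call was lost with the mitochondrial covariate and in replicates 5 to 7. Nfil3, a repressor at D-box elements, went from 8.76 ± 3.21 CPM (SD, n = 5) to 34 ± 16.2 CPM (SD, n = 7) with an adjusted p from edgeR of 0.00162.

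On the falling side, Per3, a period protein, was at 17.7, 24.8, 10.3, 5.61 and 8.04 CPM in vehicle livers and at 0.306 to 6.64 CPM (median 1.39) in AAV-GFP livers. Replicate 7 was the one AAV-GFP liver inside the vehicle range, and the log2 fold change was -2.59 ± 0.48 (adjusted p = 0.00212, and 0.0609 in replicates 5 to 7 alone). Dbp, an activator at D-box elements, was at 73, 112, 71, 67.3 and 74.5 CPM in vehicle livers and at 4.89 to 92 CPM (median 15.7) in AAV-GFP livers, where replicate 7 again stood high. Its log2 fold change was -1.54 ± 0.47 (adjusted p = 0.0358), and it was no longer called on leaving out any 1 vehicle liver or AAV-GFP 1, 2, 3 or 4, with adjusted p values of 0.0544 to 0.0814. It was also not called by DESeq2, nor with close pairs summed (adjusted p = 0.167), with the mitochondrial covariate (0.5) or in replicates 5 to 7 (0.467). Nr1d2, a repressor of Arntl, had an adjusted p of 0.0248 and was not called without vehicle 2, AAV-GFP 1 or AAV-GFP 3 (0.0505 to 0.0764), with close pairs summed (0.111), with the mitochondrial covariate (0.369) or in replicates 5 to 7 (0.437). The number of lower clock genes was 1 without vehicle 2, AAV-GFP 1 or AAV-GFP 3 and 5 without AAV-GFP 7. It was 6 with the clock score as a covariate, which is the mean log2 CPM of this same list in each liver. Because the score is made from the genes counted, which moved both ways, it does not measure the time of day.

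**Figure D4:**
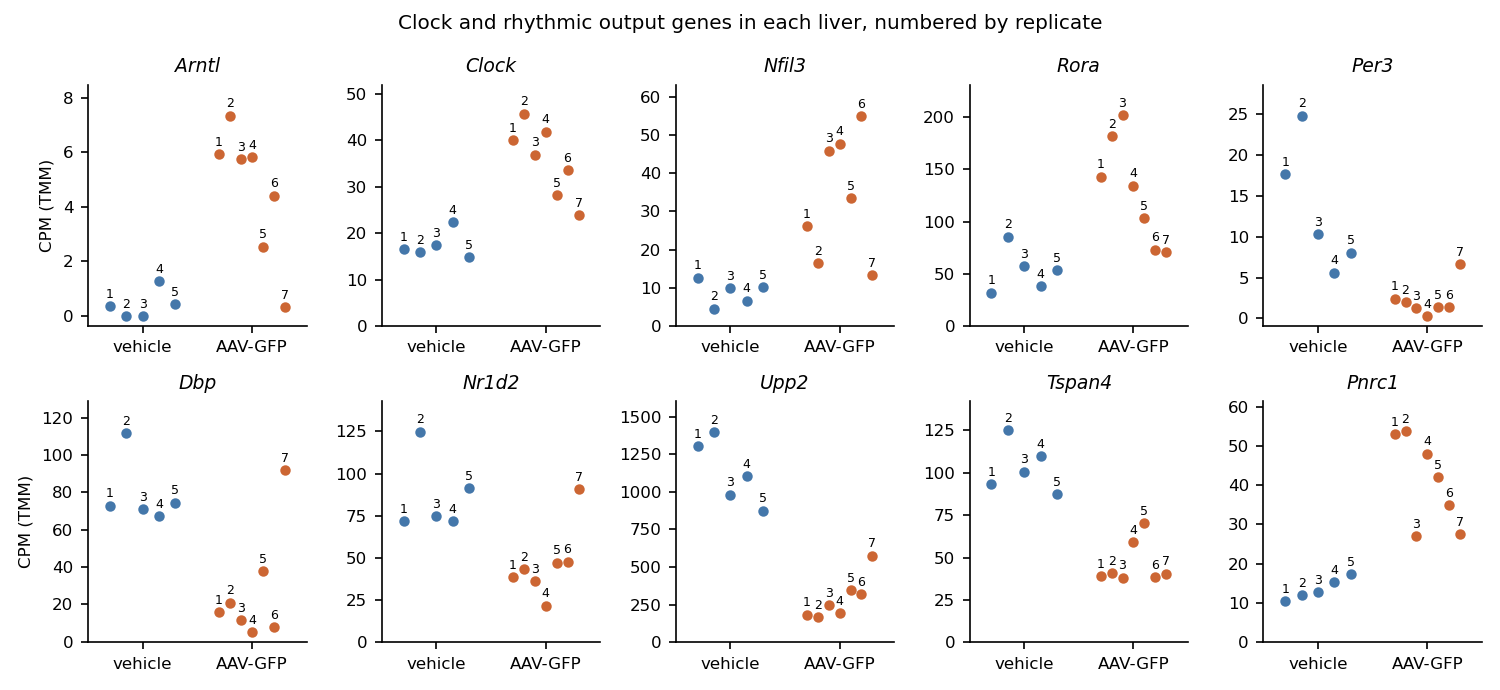
CPM (y axis) of 10 clock and rhythmic output genes in each liver, vehicle in blue and AAV-GFP in orange, numbered by replicate. AAV-GFP replicate 7 lies inside the vehicle range for Arntl, Per3, Dbp, Nr1d2 and Rora, and replicate 6 does so for Rora too. For Clock, Nfil3, Upp2, Tspan4 and Pnrc1 all AAV-GFP livers lie outside it.

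Gpcpd1, a glycerophosphocholine phosphodiesterase with a daily rhythm in liver, was the most strongly separated of the output genes. It was at 124, 149, 213, 185 and 193 CPM in vehicle livers and at 22.7 to 42.5 CPM (median 26.6) in AAV-GFP livers, a log2 fold change of -2.56 ± 0.19 (adjusted p = 4.86e-08). Upp2, a uridine phosphorylase, was at 1305, 1396, 980, 1106 and 876 CPM in vehicle livers and at 168 to 575 CPM (median 248) in AAV-GFP livers (log2 fold change -1.96 ± 0.26, adjusted p = 7.74e-05). Both genes were lower in all AAV-GFP livers, replicate 7 included. Pnrc1, a nuclear receptor coactivator, was at 10.5, 12.1, 12.7, 15.3 and 17.4 CPM in vehicle livers and at 27.1 to 53.7 CPM (median 42.1) in AAV-GFP livers (log2 fold change 1.59 ± 0.23, adjusted p = 0.000181).

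Promoters of the clock and output genes that changed were searched for the E-box CACGTG, bound by CLOCK and BMAL1, and the D-box TTATGNAA, bound by DBP and NFIL3, on both strands of the window from 250 bases before to 50 after each start site (RefSeq, GRCm38.p6). Of 32851 promoters 7.15% hold this E-box and 3.39% this D-box. Promoters were matched for 8 of the 10 lower output genes, and 3 of these hold the E-box (Coq10b, Fkbp5 and Tspan4) and 1 the D-box (Coq10b). Promoters were matched for all 3 lower clock genes, of which Per3 holds the D-box at positions -205 and -158 from the start site. None of the 5 higher clock genes with a matched promoter holds either motif, and of the 4 higher output genes Tars holds the E-box. Per3 (chr4:151044616-151044915, minus strand), Coq10b (chr1:55052520-55052819, plus strand) and Tspan4 (chr7:141476130-141476429, plus strand) are shown because they carry matches in genes that fell, with the matches in capitals; they were chosen after their values were seen.
Per3: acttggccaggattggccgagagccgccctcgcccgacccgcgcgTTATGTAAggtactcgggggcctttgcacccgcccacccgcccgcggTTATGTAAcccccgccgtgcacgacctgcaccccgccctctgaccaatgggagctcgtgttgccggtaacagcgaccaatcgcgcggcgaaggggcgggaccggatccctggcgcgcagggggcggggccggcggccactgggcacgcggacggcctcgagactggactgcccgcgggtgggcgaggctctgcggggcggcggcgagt
Coq10b: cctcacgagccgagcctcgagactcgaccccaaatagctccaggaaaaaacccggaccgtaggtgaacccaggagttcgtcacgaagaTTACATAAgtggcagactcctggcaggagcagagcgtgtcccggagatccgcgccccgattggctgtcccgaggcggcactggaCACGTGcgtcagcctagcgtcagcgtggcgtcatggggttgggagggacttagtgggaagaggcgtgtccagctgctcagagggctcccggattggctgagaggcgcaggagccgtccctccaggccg
Tspan4: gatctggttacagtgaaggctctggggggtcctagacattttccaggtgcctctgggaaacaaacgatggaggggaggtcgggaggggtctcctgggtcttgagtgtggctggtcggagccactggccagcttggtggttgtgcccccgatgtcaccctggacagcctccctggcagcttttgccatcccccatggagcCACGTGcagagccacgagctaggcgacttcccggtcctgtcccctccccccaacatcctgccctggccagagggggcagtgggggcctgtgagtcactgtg
Coq10b, a coenzyme Q binding protein, fell by 1.10 ± 0.24 on the log2 scale (adjusted p = 0.00756). It was not called in replicates 5 to 7, where the 4 lower output genes were Gpcpd1, Upp2, Por and Tspan4. Tspan4, a tetraspanin, was at 93.5, 125, 101, 110 and 87.6 CPM in vehicle livers and at 38.1 to 70.3 CPM (median 40.5) in AAV-GFP livers, a log2 fold change of -1.14 ± 0.18 (adjusted p = 0.000636). The same search for the antioxidant response element TGACNNNGC, the sequence that NRF2 binds, found it in 12.4% of all promoters and in 1 (Pgd) of the 11 higher NRF2 targets with a matched promoter.

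Of 37 tested genes of the growth hormone axis and the male liver programme, 15 fell and 3 rose (Onecut1, Cyp4a12a and Cyp4a12b), where 5.19% of all genes were called lower and 7.54% higher, so that the rises are close to the share of all genes. The lower count was 12 without vehicle 1 or 4, and the higher count was 0 without these and 1 without AAV-GFP 1, 2 or 3. There were 7 lower genes with close pairs summed, 5 with the mitochondrial covariate and 9 in replicates 5 to 7, and 0, 1 and 1 higher genes. None of Onecut1, Cyp4a12a and Cyp4a12b was called in these fits, and the Onecut1 log2 fold change turned to -0.30 with the covariate and -0.0441 in replicates 5 to 7. Summed over the list, AAV-GFP livers 1 to 5 held 20250 to 27870 CPM, whereas AAV-GFP 6 and 7, at 42950 and 43300 CPM, came close to vehicle 1 and 2, at 44160 and 44380 CPM. Moxd1 (chr10:24223517-24302790), a monooxygenase-like protein of male liver, was at 132, 66.5, 41.9, 167 and 40.6 CPM in vehicle livers and at 0 to 0.339 CPM (median 0) in AAV-GFP livers. This is 1399 counts over the vehicle libraries against 1 count over the AAV-GFP libraries, a ratio of 2230 (exact binomial 95% interval 399 to 88100, counting error only), with an adjusted p from edgeR of 1.51e-09. Susd4, a membrane regulator of complement, was at 28.9, 36.9, 35.3, 34.7 and 37.7 CPM in vehicle livers and at 0 to 3.28 CPM (median 1.39) in AAV-GFP livers (log2 fold change -4.84 ± 0.42, adjusted p = 3.49e-07). Nxpe2 was at 33.2, 22.8, 25.9, 30.3 and 29.2 CPM in vehicle livers and at 0 to 3.73 CPM (median 0.693) in AAV-GFP livers (log2 fold change -4.78 ± 0.40, adjusted p = 2.81e-07). For these genes the groups were wide apart in every liver.

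Mup17, Mup18 and Mup11, genes of major urinary proteins, the pheromone carriers that male liver secretes in quantity, fell as well. Mup17 was at 3357, 2262, 8817, 3631 and 10210 CPM in vehicle livers and at 9.17 to 206 CPM (median 26.1) in AAV-GFP livers (log2 fold change -6.45 ± 0.68, adjusted p = 7.7e-06). Mup18 was at 994, 572, 1388, 1074 and 1632 CPM in vehicle livers and at 34.5 to 213 CPM (median 89.4) in AAV-GFP livers (log2 fold change -3.48 ± 0.36, adjusted p = 6.92e-06). Mup11 fell by 3.55 ± 0.68 on the log2 scale (adjusted p = 0.00261, and 0.113 with the mitochondrial covariate). Mup genes are near-identical copies, and how reads were divided among them is uncertain, so that the value of any single Mup gene is uncertain too. Not all genes of the axis were called: Igf1, the growth factor that growth hormone induces in liver, was at 905 ± 116 CPM (SD, n = 5) and 1042 ± 106 CPM (SD, n = 7) with an adjusted p from edgeR of 0.389.

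**Figure D5:**
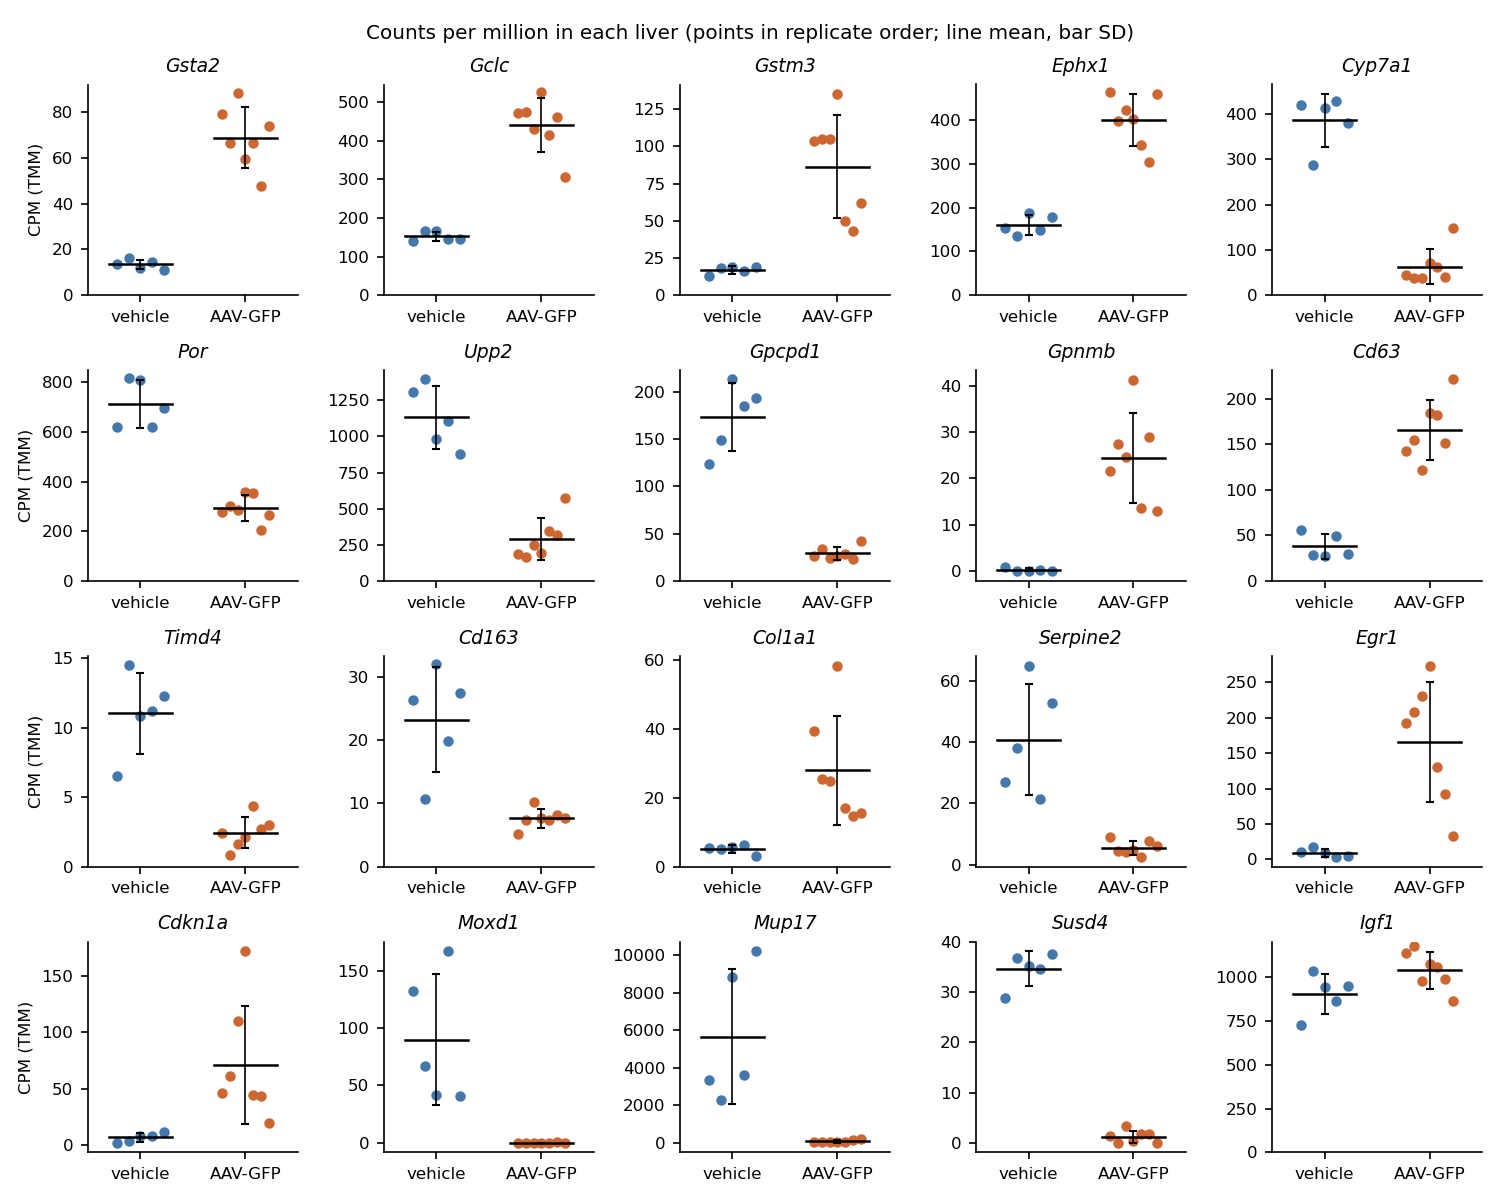
CPM (y axis) of the leading genes in each liver, vehicle in blue and AAV-GFP in orange, with points in replicate order, a line at the mean and a bar of 1 SD. The groups overlap in the panel of Igf1, at 905 ± 116 and 1042 ± 106 CPM, and in no other panel.

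Among secreted proteins, acute phase and coagulation genes were lower in some members. Of 29 tested acute phase genes 6 fell (Saa4, Orm1, Orm2, Orm3, Apcs and Serpina3m) and 1 rose (Socs3), with a median of -0.51, which is 24.1% of the list against 12.7% of all genes. Apcs, serum amyloid P, was at 951, 298, 155, 1050 and 205 CPM in vehicle livers and at 62.7 to 229 CPM (median 104) in AAV-GFP livers. Vehicle livers 1 and 4, which form a close pair, were the high ones, and the other 3 vehicle livers came near to or into the AAV-GFP range (log2 fold change -2.12 ± 0.41, adjusted p = 0.00307). Orm3, an acid glycoprotein, was at 128, 36.5, 14.6, 127 and 16.1 CPM in vehicle livers, with the same pair high, and at 0.306 to 32.1 CPM (median 5.09) in AAV-GFP livers. The sum of the list was highest in vehicle 1 and 4, at 91790 and 91030 CPM, and in AAV-GFP 4 and 5, at 65290 and 77090 CPM, against 44060 to 50770 CPM in the other vehicle livers and 30670 to 37110 CPM in the other AAV-GFP livers. The neutrophil markers, 14 listed and each with counts, were high in the same livers, at 227.1 and 228.6 CPM in vehicle 1 and 4 and 130.5 and 276.5 CPM in AAV-GFP 4 and 5, and at 33.89 to 60.35 CPM in the rest. Their part in the acute phase values was not tested. The lower count was 3 without vehicle 1 or 4, the higher count 2 without AAV-GFP 6 or 7, and no acute phase gene was called in replicates 5 to 7 alone or with the mitochondrial covariate. With close pairs summed 1 acute phase gene was called lower, and Orm3 (adjusted p = 0.0604), Saa4 (0.0768) and Serpina3m (0.15) lost their calls. Of 34 tested complement and coagulation genes 7 fell and 1 rose (23.5% of the list), with 2 lower without vehicle 1, 4 without vehicle 2, 1 without vehicle 4 and 3 without AAV-GFP 1, 2, 3 or 4. No gene of that list was called lower with close pairs summed, with the mitochondrial covariate or in replicates 5 to 7. F7, coagulation factor VII, went from 171 ± 20.9 CPM (SD, n = 5) to 108 ± 19 CPM (SD, n = 7) with an adjusted p from edgeR of 0.0106, a call that close pairs summed, the mitochondrial covariate and replicates 5 to 7 each ended.

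Serpine2, a secreted serine protease inhibitor, was at 27.1, 37.9, 64.9, 21.4 and 52.9 CPM in vehicle livers and at 2.54 to 9.05 CPM (median 4.89) in AAV-GFP livers, lower in all 7, a log2 fold change of -2.87 ± 0.31 (adjusted p = 7.83e-06). Among 40 tested hepatokines and growth factors 6 rose and 5 fell (27.5% against 12.7% of all genes), with 3 lower without vehicle 1 or 4. With close pairs summed 1 rose and 2 fell, with the mitochondrial covariate 3 and 1, and in replicates 5 to 7 2 and 1. Gdf15, a stress-induced hormone, was at 14.1, 12.4, 107, 12 and 63.9 CPM in vehicle livers and at 81.1 to 525 CPM (median 306) in AAV-GFP livers (log2 fold change 2.83 ± 0.54, adjusted p = 0.00264). Vehicle liver 3 lay within the AAV-GFP range. Igfbp1 rose by 2.20 ± 0.52 on the log2 scale and Igfbp2, its fellow binding protein for insulin-like growth factors, fell by 1.09 ± 0.18, Igfbp1 losing its call with close pairs summed, with the mitochondrial covariate and in replicates 5 to 7.

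Of 19 tested p53 targets 6 rose (Cdkn1a, Trp53inp1, Btg2, Plk3, Gdf15 and Bbc3) and Mdm2 fell, the last a call that held only on leaving out AAV-GFP 7 among the 12 fits that each left out 1 liver. These are 36.8% of the list against 12.7% of all genes. The list median was 0.10, and 4 targets were higher with close pairs summed, with the mitochondrial covariate and in replicates 5 to 7 alike. Cdkn1a, the cell cycle inhibitor p21, was at 1.81, 3.79, 8, 8.15 and 11.8 CPM in vehicle livers and at 19.3 to 172 CPM (median 45.6) in AAV-GFP livers, higher in all 7 (log2 fold change 3.40 ± 0.50, adjusted p = 0.00024). Egr1, an immediate early transcription factor, was at 10.8, 17.6, 8.47, 3.06 and 5.08 CPM in vehicle livers and at 32.6 to 274 CPM (median 193) in AAV-GFP livers (log2 fold change 4.21 ± 0.48, adjusted p = 1.49e-05). Nr4a1, an immediate early nuclear receptor, was at 1.08, 0, 0, 1.02 and 0 CPM in vehicle livers and at 4.98 to 19 CPM (median 11.5) in AAV-GFP livers (log2 fold change 4.41 ± 0.57, adjusted p = 7e-05). No AAV-GFP liver reached down to the vehicle range for these genes. Of 20 tested cell cycle genes Top2a and Birc5 rose and Ccne2 fell, which at 15% is close to the 12.7% of all genes called, with 4 higher without AAV-GFP 6 and none lower without vehicle 4, and AAV-GFP replicate 4 was the highest for Top2a (39.1 CPM against a median of 11.6). Neither Top2a nor Birc5 was called with the mitochondrial covariate, Birc5 was not called with close pairs summed, Top2a was not called in replicates 5 to 7, and Ccne2 was called in none of these fits.

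Of 39 tested genes of actin, tubulin and the annexins 15 rose, none fell and 24 were not called, with a median of 0.48. This is 38.5% of the list against 12.7% of all genes. The rise numbered 10 without vehicle 4, 5 with close pairs summed, 6 with the mitochondrial covariate and 4 in replicates 5 to 7. Tubb2a, a beta tubulin, was at 14.4, 6.55, 5.18, 6.12 and 10.2 CPM in vehicle livers and at 37.9 to 109 CPM (median 62.3) in AAV-GFP livers (log2 fold change 3.07 ± 0.34, adjusted p = 1.29e-05). Anxa5, which binds phosphatidylserine, went from 24.6 ± 7.39 CPM (SD, n = 5) to 67.6 ± 12.2 CPM (SD, n = 7) with an adjusted p from edgeR of 0.000134. Ly6d, a cell surface protein outside these lists, was at 7.58, 2.76, 1.88, 5.1 and 2.12 CPM in vehicle livers and at 20.1 to 65.9 CPM (median 46) in AAV-GFP livers (log2 fold change 3.39 ± 0.38, adjusted p = 1.29e-05). Tubb2a, Anxa5 and Ly6d were above all vehicle livers in every AAV-GFP liver.

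Of 24 listed collagens 14 passed the filter, and 7 of these rose (Col1a1, Col1a2, Col4a1, Col4a2, Col5a3, Col6a2 and Col6a3) while none fell and 7 were not called. This is 50% of those tested, where 12.7% of all genes were called and 7.54% were higher. Because a rare gene can pass the filter through the group in which it is high, this count and those of other lists with rare genes describe the members measured and are no support for the list as a whole. Col1a1 (chr11:94936224-94953042), the main chain of scar collagen, was at 5.42, 5.17, 5.65, 6.37 and 2.96 CPM in vehicle livers and at 14.6 to 58.4 CPM (median 25) in AAV-GFP livers. It rose in all 7 (log2 fold change 2.42 ± 0.36, adjusted p = 0.000298) and was the 1 collagen still called with close pairs summed, with the mitochondrial covariate and in replicates 5 to 7. Summed over the list, collagens made 389.7 to 541.3 CPM in vehicle livers and 426.9 to 806.1 CPM in AAV-GFP livers, ranges that overlap. In bulk liver fewer cells of a type and less RNA per cell cannot be told apart.

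Of 50 listed genes of activated stellate cells and matrix 31 were tested, 9 rose (Pdgfrb, Timp2, Mmp14, Loxl1, Lum, Bgn, Eln, Serpinh1 and Gas6) and Fn1 fell (32.3% against 12.7% of all genes), with 5 higher without vehicle 4 or AAV-GFP 1 and 2 lower without AAV-GFP 6. The higher genes numbered 2 with close pairs summed, 2 in replicates 5 to 7 and 0 with the mitochondrial covariate. Eln, elastin, went from 0.922 ± 0.763 CPM (SD, n = 5) to 6.07 ± 2.24 CPM (SD, n = 7) with an adjusted p from edgeR of 0.00292, and was not called with the mitochondrial covariate. Fn1, fibronectin, which hepatocytes also secrete, was at 1145, 1274, 826, 1306 and 889 CPM in vehicle livers and at 315 to 767 CPM (median 539) in AAV-GFP livers, lower in all 7 (log2 fold change -1.07 ± 0.20, adjusted p = 0.0019). The sum of the list was 1703 to 2245 CPM in vehicle and 1239 to 1685 CPM in AAV-GFP livers. Without Fn1, left out after its values were seen, the list summed to 652.3 to 978.3 CPM (median 877.1) in vehicle and 915.8 to 1138 CPM (median 930.7) in AAV-GFP livers, ranges that overlap. Acta2, smooth muscle actin of contractile stellate cells, was at 8.67, 0.345, 5.18, 0 and 0.423 CPM in vehicle livers and at 0.664 to 8.56 CPM (median 3.69) in AAV-GFP livers. It was not called (log2 fold change 0.75 ± 0.70, adjusted p = 0.494). Timp1, an inhibitor of matrix proteases, did not reach the filter, with at most 1.22 CPM in any of these livers.

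Markers of quiescent stellate cells gave 4 lower calls of 19 tested (Colec10, Rgs5, Angptl6 and Fcna) and none higher (21.1% against 12.7% of all genes), though 2 were higher without AAV-GFP 6 and 1 without AAV-GFP 7, and their sum went from 428.9 to 615.1 CPM in vehicle livers to 324.3 to 431.1 CPM in AAV-GFP livers. Colec10, a collectin, fell by 1.08 ± 0.20 on the log2 scale (adjusted p = 0.00216). Of 22 listed cholangiocyte and ductular genes 9 were tested, 4 rose, among them Krt8, Sox4 and Spp1, and Tff3 fell, with 7 higher without AAV-GFP 6. Sox4, a transcription factor of ductular cells, was at 6.14, 3.79, 2.82, 6.37 and 2.96 CPM in vehicle livers and at 8.14 to 19.6 CPM (median 14.7) in AAV-GFP livers (log2 fold change 1.66 ± 0.29, adjusted p = 0.00118). The lower quiescent stellate genes numbered 2 with close pairs summed and 0 with the mitochondrial covariate or in replicates 5 to 7, and the higher ductular genes 1, 1 and 2 in these fits. Colec10 and Sox4 were not called with the mitochondrial covariate or in replicates 5 to 7. Krt8 was called in none of these fits, Spp1 was not called with close pairs summed (adjusted p = 0.0557), and Tff3 was not called with close pairs summed (0.101) or with the mitochondrial covariate (0.274). The Tff3 log2 fold change of -2.99 was -5.24 without AAV-GFP 4. The ductular list summed to 724 to 979.1 CPM in vehicle and 711.9 to 1277 CPM in AAV-GFP livers.

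Macrophage genes changed in both directions. Genes of resident Kupffer cells fell in 6 of 18 tested members (Clec4f, Vsig4, Timd4, Cd5l, Adgre1 and Cd163) and rose in none, with a median of -0.57, where 5.19% of all genes were called lower and 7.54% higher. Genes of lipid- and scar-associated macrophages rose in 7 of 13 tested members (Gpnmb, Cd63, Spp1, Lgals1, Lpl, Cd36 and Anxa5), Fabp5 falling. Only 13 of the 20 listed genes of the latter passed the filter, and Gpnmb could pass it through the AAV-GFP livers alone. Gpnmb (chr6:49036546-49070929), a glycoprotein of lipid-laden macrophages, was at 0.722, 0, 0, 0.255 and 0 CPM in vehicle livers and at 13 to 41.3 CPM (median 24.6) in AAV-GFP livers. This is 3 counts over the vehicle libraries against 537 over the AAV-GFP libraries, a ratio of 112 (exact binomial 95% interval 38.3 to 547, counting error only), with an adjusted p from edgeR of 2.81e-07. Cd63, a tetraspanin of late endosomes, was at 56, 27.9, 27.3, 48.9 and 29.6 CPM in vehicle livers and at 122 to 221 CPM (median 154) in AAV-GFP livers (log2 fold change 2.12 ± 0.22, adjusted p = 6.92e-06). The groups did not overlap for either gene. Several members of this list are also expressed by hepatocytes and other cells, and the list as a whole summed to 520.9 to 1017 CPM in vehicle and 960.5 to 1470 CPM in AAV-GFP livers.

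Timd4, a phosphatidylserine receptor of long-lived Kupffer cells, was at 6.5, 14.5, 10.8, 11.2 and 12.3 CPM in vehicle livers and at 0.847 to 4.39 CPM (median 2.44) in AAV-GFP livers (log2 fold change -2.13 ± 0.34, adjusted p = 0.000569). Cd163, a haemoglobin scavenger receptor, was at 26.4, 10.7, 32, 19.9 and 27.5 CPM in vehicle livers and at 5.22 to 10.2 CPM (median 7.64) in AAV-GFP livers (log2 fold change -1.59 ± 0.25, adjusted p = 0.000555). Clec4f, the lectin that defines mouse Kupffer cells, fell by 0.93 ± 0.23 on the log2 scale, its ranges overlapping, and lost its call with close pairs summed, with the mitochondrial covariate and in replicates 5 to 7. No Kupffer gene was called with the mitochondrial covariate, and 2 were with close pairs summed or in replicates 5 to 7, whereas 6 scar-associated genes were called higher with close pairs summed and 7 in replicates 5 to 7. The Kupffer list summed to 1096 to 1484 CPM in vehicle and 961.2 to 1303 CPM in AAV-GFP livers. Lymphocyte markers (39.64 to 99.02 against 48.82 to 145.5 CPM) and neutrophil markers (42.81 to 228.6 against 33.89 to 276.5 CPM) overlapped between the groups, and only 6 of 29 and 3 of 14 of them could be tested. The lymphocyte markers Cd3g, Cd8a and Cd79a were among those at 0 in every vehicle liver, and Ncr1 had no count in either group.

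In the TAA-treated livers with AAV-miR-34b/c, which share the AAV-GFP livers as their comparison, some of these genes stood near the vehicle values and others did not (3.36% of the 9252 genes tested for this difference were called). The AAV-miR-34b/c livers also held close pairs, 1 with 2, 3 with 4, and 5 with 7. Their mitochondrial share was 3.71% and 3.73% in replicates 1 and 2 and 8.21% to 10.8% in replicates 3 to 7. No fit with the pairs summed or with this share as a covariate is given here. The genes shown are among those named for AAV-GFP against vehicle. Choosing genes for extreme values in AAV-GFP livers favours values nearer the vehicle in another group, and this was not tested. Gsta2 was at 9.29 to 16.9 CPM there (median 14.5), Gclc at 144 to 217 CPM (median 171), Ephx1 at 131 to 203 CPM (median 170) and Etnppl at 24.8 to 71.9 CPM (median 40.6), and their adjusted p values against AAV-GFP were 6.96e-07, 2.97e-05, 7.66e-05 and 2.97e-05. Col1a1 was at 5.54 to 8.73 CPM (median 6.63, adjusted p = 0.000898). Moxd1 was at 4.41 to 16.8 CPM (median 6.92, adjusted p = 5.81e-06), which is above all AAV-GFP livers and below all vehicle livers. Gpcpd1 stayed at 15.1 to 61.5 CPM (median 40.1, adjusted p = 0.74), Oat at 116 to 192 CPM (median 171, adjusted p = 0.997) and Cyp7a1 at 37.3 to 195 CPM (median 111, adjusted p = 0.397), without a call against AAV-GFP.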

How the data were processed

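Liver RNA of 12 mice (5 vehicle, 7 AAV-GFP) was measured by 3′-end mRNA sequencing, in which a read count follows transcript number and not transcript length. The authors deposited raw counts per gene for all 19 libraries in 1 table, without normalization or pooling. The submitters' processing notes name STAR and mm10; the annotation release, the strand setting and the use of molecular identifiers are not given in the sources used here, so that overlapping and antisense genes, and near-identical copies such as the Mup genes, remain uncertain. Gene names and positions came from GENCODE for GRCm38. Groups came from the labels.

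Genes were kept by edgeR's expression filter (at least 10 counts in the smaller group's number of libraries, rescaled to depth, and 15 in all), scaled by TMM and tested with edgeR's quasi-likelihood test (edgeR 4.0.16, limma 3.58.1, DESeq2 1.42.0, R 4.3.3), AAV-GFP against vehicle alone, with Benjamini-Hochberg adjustment over all genes tested and a threshold of 0.05. CPM values (a share of the library total) are TMM-scaled, those of AAV-miR-34b/c livers over all 19 libraries, and folds are log2 with their SE. The smallest exact two-sided permutation p that 5 against 7 libraries allow for a single gene is 0.00126. The labels call the libraries biological replicates, and p-values measure the spread between them. Named genes are the 10 with the smallest adjusted p and the 10 with the largest fold in each direction (mean of at least 20 counts in the higher group), up to 4 called members per direction of each of 40 gene lists, and Col1a1, Acta2, Timp1, Gpnmb, Glul, Cyp2e1, Alb, Dbp, Arntl, Nqo1, Hmox1, Cyp7a1 and Igf1. Other list members are named to account for a count. The comparison, the lists and the named genes were chosen with earlier results of these data known. On simulated counts for this comparison (9354 genes, 200 of them changed), the test recovered 52.6% of 2-fold and 100% of 4-fold changes, and 2.01% of its calls were unchanged genes. The simulation gave every gene the same spread and made all libraries independent, without close pairs or a split in mitochondrial share. These shares therefore check the test itself and are not the recovery or false call rate in these livers.

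Alternatives were other scalings and filters, DESeq2 (whose missing adjusted p values stayed missing), limma-voom with sample quality weights, 1 fit of all 3 groups, close pairs of libraries summed (leaving 3 vehicle and 6 AAV-GFP samples), a clock covariate, a replicate block and each library left out. Added after seeing the data were the mitochondrial share as a covariate, AAV-GFP replicates 1 to 5 or 5 to 7 alone and the removal of mitochondrial genes. Same-numbered livers of the groups did not deviate together (correlations -0.0947 to 0.235), so the numbers were not taken as pairs. Intervals of counts cover counting error only. A few of the genes that the naming rule selects are not reported here.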

Additional observations from a re-analysis of the deposited data

Results flagged for a closer look

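Values far from the rest of their group were found by Dixon's rule in 17 of 186 groups of libraries tested. About 9 would be expected of independent groups with normally spread values. Low CPM values are not spread so, and the genes come from the same livers. The 2 numbers are therefore no test of chance. AAV-GFP replicate 7 stood apart from the other AAV-GFP livers, on the side of the vehicle livers, for Cyp7a1 (148 CPM), Per3 (6.64 CPM), Dbp (92 CPM) and Nr1d2 (90.7 CPM). AAV-GFP replicate 4 was far above the others for Krt8 (102 CPM), the secreted trefoil peptide Tff3 (56.2 CPM), and the mitotic genes Top2a (39.1 CPM) and Birc5 (18.9 CPM). AAV-GFP replicate 5 was high for Orm3 (32.1 CPM) and Saa4 (471 CPM) and had the largest total of 4383805 counts. AAV-GFP replicate 6 was high for Moxd1 (0.339 CPM, which is 1 count) and Nxpe2 (3.73 CPM). Among vehicle livers, replicate 2 was high for Dbp (112 CPM) and for the mitochondrial share (5.65%) and low for Saa4 (387 CPM), and replicate 5 was high for Cd36 (22.4 CPM). The reasons were not tested.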

How the results depend on the processing

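The number of genes called between AAV-GFP and vehicle livers, 1212, was 1020 to 1564 with other scalings, other filters, DESeq2, 1 fit of all 3 groups or a clock covariate. It was 2687 (1350 higher, 1337 lower) by limma-voom with sample quality weights, and 227 (142 and 85) with close pairs of libraries summed. With settings chosen after seeing the data it was 146 (85 and 61) with the mitochondrial share as a covariate, 180 (103 and 77) with AAV-GFP replicates 5 to 7 alone and 2880 (1473 and 1407) with replicates 1 to 5 alone. Leaving out 1 library gave 689 to 1859 genes, 432 to 1018 higher and 257 to 841 lower. The replicate block, over replicates 1 to 5, gave 3088 (1585 and 1503), so that most of its excess over 1212 was also there in replicates 1 to 5 without it. The replicate numbers did not pair the livers, and only replicate 3 correlated best with its own number. Of 176 named genes that were called, 125 kept their call in every fit that left out 1 library and had a value for them (5 of these had one in only 7 of 12 fits), and 49 in every alternative with a value. The direction reversed for the Onecut1 log2 fold change (-0.30 with the mitochondrial covariate, -0.0441 in replicates 5 to 7) and for the Hmox1 log2 fold change (-0.00964 in replicates 5 to 7), and the cause was not tested. At 2214073 to 4383805 counts a library, 2-fold changes of many genes would be missed, so that a gene without a call is not shown to be unchanged. TAA and the vector, the hour of collection and the share of each cell type cannot be told apart from each other.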

Other observations

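The comparisons above left some gene lists undescribed, and members of these changed too, against 12.7% of all genes called. Of 29 tested genes of endoplasmic reticulum folding and stress 6 rose and 1 fell (24.1%), with a median log2 fold change of 0.33, and the fall was not called without vehicle 1 or AAV-GFP 1. The 6 higher genes were 1 with close pairs summed, 3 with the mitochondrial covariate and 5 in replicates 5 to 7. Pdia4, a protein disulfide isomerase, was at 92.8, 95.5, 135, 104 and 141 CPM in vehicle livers and at 157 to 304 CPM (median 204) in AAV-GFP livers (log2 fold change 0.90 ± 0.20, adjusted p = 0.00638), without overlap, and was not called with the mitochondrial covariate. Of 23 tested genes of iron and metal handling 4 rose (Ftl1, Id1, Steap3 and Slc30a10) and none fell, though 1 was lower without AAV-GFP 4, and the higher count was 2 with close pairs summed and 1 with the mitochondrial covariate or in replicates 5 to 7. Id1, a target of the BMP signal that reports iron in hepatocytes, was at 6.5, 12.8, 4.71, 3.82 and 2.96 CPM in vehicle livers and at 13 to 33.9 CPM (median 18.9) in AAV-GFP livers (log2 fold change 1.75 ± 0.34, adjusted p = 0.00266). Steap3, a ferrireductase, rose by 1.13 ± 0.22 on the log2 scale in AAV-GFP livers, and was not called with the mitochondrial covariate (adjusted p = 0.062) or in replicates 5 to 7 (0.0609).

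Of 21 tested xenobiotic and bile transporters 3 rose and 4 fell (33.3%), but the rise was 1 gene without vehicle 1, 3 or 4 or AAV-GFP 1 to 5, and the fall was 1 gene without vehicle 1, vehicle 4 or AAV-GFP 1 and 2 genes without vehicle 2 or 3 or AAV-GFP 2, 3 or 4. Of 42 tested genes of the urea cycle and amino acid breakdown 6 rose and 4 fell (23.8%), with 2 lower without vehicle 1 or 5 or AAV-GFP 1 to 4. With close pairs summed no transporter was called, and 1 gene of amino acid breakdown rose and 1 fell.

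Of 35 tested lysosomal genes 5 rose, among them Lipa, Psap, Cd63 and Man2b1, and Ctsh fell, with 3 lower without AAV-GFP 5 and 2 without AAV-GFP 6. Only 1 was called higher with close pairs summed, with the mitochondrial covariate or in replicates 5 to 7, and Psap, Man2b1 and Ctsh lost their calls in each of these. Of 23 sinusoidal endothelial genes Ehd3 and Cd34 rose and none fell, a count of 0 with close pairs summed or the mitochondrial covariate, of 1 in replicates 5 to 7, of 1 without vehicle 1 or AAV-GFP 1, 2 or 3 and of 0 without vehicle 4, with 1 lower without AAV-GFP 5, and the list summed to 769.8 to 930.7 CPM in vehicle and 828 to 1058 CPM in AAV-GFP livers. Of 6 tested female-biased genes, from 27 listed, 3 were called (50% of those that passed the filter): Abcd2 rose and Cyp17a1 and Tox fell. The rise was 2 genes without vehicle 3 and none without AAV-GFP 1, 3 or 4. Abcd2 itself also lost its call without vehicle 1, 2, 4 or 5. It was not called with close pairs summed (adjusted p from edgeR 0.131), with the mitochondrial covariate (0.627) or in replicates 5 to 7 (0.653). Cyp17a1 was not called with close pairs summed (0.136) or with the mitochondrial covariate (0.337). Of 32 tested hepatocyte transcription factors 5 rose and 1 fell (18.8%), with a median log2 fold change of 0.14. The higher count was 1 with close pairs summed or in replicates 5 to 7 and 0 with the mitochondrial covariate. Hnf4a, the master regulator of hepatocyte identity, went from 121 ± 10.2 CPM (SD, n = 5) to 220 ± 54.1 CPM (SD, n = 7) with a log2 fold change of 0.86 ± 0.18, and this call was lost with close pairs summed, with the mitochondrial covariate and in replicates 5 to 7.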
